A study of Mus musculus with 8 samples.

Results

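The D cyclin genes Ccnd1, Ccnd2 and Ccnd3 and the genes of their partner kinases, Cdk4 and Cdk6, are 5 of the 27998 genes in the deposited count tables, and they were taken by symbol. The series is a droplet single-cell RNA-seq study of mouse cortex under the extrinsic signal SHH. All animals were CD1 embryos whose cortex was harvested at E16.5. The wild type group has 4 littermate samples, and the ShhN group has 4 samples into which a ShhN plasmid was electroporated in utero at E13.5. The labels do not say whether the littermates received a control plasmid or a mock electroporation, they name no promoter for the plasmid, and they do not mark which cells took it up. Each group was deposited as 1 matrix that pools its 4 samples, and no file maps cells to samples. Every comparison below is therefore between 2 pooled libraries, has no replicate check and carries no test. The 5 genes were selected on their UMI levels in these libraries, by cell class and in free RNA, so the differences between the libraries are a description.

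D cyclins are made in response to growth signals and bind CDK4 or CDK6. The active kinase phosphorylates the retinoblastoma pocket proteins, which frees E2F factors and lets a cell pass from G1 into S phase. Binding proteins of the INK4 and CIP/KIP families hold the cyclin-dependent kinases in check. In the embryonic cortex, radial glia divide at the ventricle and give rise to intermediate progenitors, whose daughters become excitatory neurons, whereas most cortical GABAergic interneurons are born elsewhere and migrate in. SHH is a known inducer of D cyclin transcription in neural progenitors.

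The wild type matrix held 63760199 UMIs (unique molecular identifiers, each counting 1 captured transcript) and the ShhN matrix 69470062. Filtering left 6919 cells from wild type and 8092 from ShhN embryos, with medians of 6277 and 6687 UMIs per cell. The libraries shared 72 cell barcodes. Shh itself had 0 UMIs in wild type cells and 5882 in ShhN cells, the direction that the labels give. Cells with a UMI of Mki67 or Top2a, genes of dividing cells, were 5.30% of all cells in the wild type library and 16.1% in the other. Red blood cell genes, which mark blood carried over at dissection, stood at 8477 UMIs per 1000000 among wild type cells and 4394 among ShhN cells. Cell classes were rebuilt from marker genes and may differ from those of the authors, so each name below means cells like that type. The marker score left 41.0% of the cells unassigned in wild type and 46.1% in ShhN.

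In these classes the wild type and ShhN libraries held 201 and 345 radial glia-like, 439 and 745 neurogenic intermediate progenitor-like and 752 and 955 newborn and migrating excitatory neuron-like cells. Upper layer neuron-like cells numbered 952 and 817, deep layer neuron-like cells 788 and 769, and GABAergic interneuron-like cells 803 and 515. Of these, 254 wild type and 276 ShhN upper layer cells lay near the limits of the class score, against 7 and 14 radial glia-like cells. All 15 radial glia markers and all 10 intermediate progenitor markers were higher in their class than in other cells of both libraries. Smaller classes are given by value only, among them 15 wild type and 141 ShhN glial or olfactory bulb progenitor-like cells and 43 and 32 endothelial and mural-like cells.

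The genes lie on separate chromosomes of the mouse build GRCm38 (mm10): Ccnd1 at chr7:144929931-144939925 on the minus strand, Ccnd2 at chr6:127125162-127152193 on the minus strand, and Ccnd3 at chr17:47505051-47599691 on the plus strand. Cdk4 is at chr10:127063534-127067920 and Cdk6 at chr5:3341485-3531008, both on the plus strand. Each of the 5 has an exon overlapped by a gene on the other strand, and whether counting used the strand is not given in the sources used here. For Ccnd2 the overlapping antisense genes held few UMIs, 16 in wild type and 21 in ShhN cells for 9330179D12Rik. Tspan31, which overlaps the end of Cdk4, held 2683 and 3630 UMIs, and Bysl, which overlaps the end of Ccnd3, held 1036 and 1288. Reads of such pairs cannot be told apart without strand. Oraov1, which overlaps Ccnd1, held 628 and 886 UMIs.

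RefSeq (GRCm38.p6) promoter windows, 250 bases before to 50 after a transcript start, were found for 3 of the 5 genes: Ccnd3, Cdk4 and Cdk6. The windows of both kinases are printed to set the kinase whose level differed between the libraries, Cdk6, beside the one past the rule of size in no class, Cdk4, as described further on. Capitals mark CACGTG, the E-box bound by MYC and MAX, and GGGCGG, the GC box of SP and KLF factors. They also mark TTTNNCGC, a loose E2F-like pattern in which N is any base, so a match need not be an E2F site. Each was searched on both strands, so the GC box also appears as its complement. The Cdk4 window is chr10:127063285-127063584 and the Cdk6 window chr5:3343643-3343942, both on the plus strand.
Cdk4: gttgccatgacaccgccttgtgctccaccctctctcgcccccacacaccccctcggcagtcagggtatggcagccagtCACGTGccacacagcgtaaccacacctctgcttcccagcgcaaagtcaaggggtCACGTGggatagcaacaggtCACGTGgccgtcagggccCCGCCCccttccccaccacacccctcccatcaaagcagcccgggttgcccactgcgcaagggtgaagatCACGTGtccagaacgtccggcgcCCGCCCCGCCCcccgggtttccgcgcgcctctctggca
Cdk6: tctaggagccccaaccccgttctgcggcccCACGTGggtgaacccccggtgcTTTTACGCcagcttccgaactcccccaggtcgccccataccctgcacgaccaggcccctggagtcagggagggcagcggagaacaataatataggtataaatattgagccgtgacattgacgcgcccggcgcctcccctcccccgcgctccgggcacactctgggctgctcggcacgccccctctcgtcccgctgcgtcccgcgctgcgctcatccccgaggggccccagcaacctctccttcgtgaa
The Cdk4 window held 4 E-boxes and 3 GC boxes, of which 2 overlap, and no match of the E2F-like pattern. The Cdk6 window held 1 E-box, 1 match of the E2F-like pattern (TTTTACGC) and no GC box. Neither window, nor the pair of Ccnd3 windows, held the GLI motif GACCACCCA. Of 32851 RefSeq windows of this length, 7.15% held the E-box, 5.17% the E2F-like pattern, 35.7% the GC box and 0.253% the GLI motif. These are matches of letters only.

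Levels are given as UMIs per 1000000 UMIs of a class (CPM), summed over its cells. They are 3′ tag counts that are not divided by transcript length, so the order of classes is given within each gene. Square brackets hold 95% intervals that cover counting error only. Beside each level stands that in barcodes of 1 to 50 UMIs, which hold free RNA rather than cells. Ccnd2 in free RNA stood at 97.8 CPM for wild type and 405 CPM for ShhN (103 and 483 UMIs). For Cdk6 the free RNA values were 35.1 and 203 CPM (37 and 242 UMIs), and for Ccnd1 14.2 and 32.7 (15 and 39 UMIs). For Ccnd3 they were 27.5 and 18.5 (29 and 22 UMIs), and for Cdk4 507 and 676. These levels carry counting error of their own, so below free RNA refers to the values alone.

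Ccnd2, the D cyclin of most cortical progenitors, was highest in progenitor classes of the wild type library. The 15 glial or olfactory bulb progenitor-like cells had the highest value, 1017 CPM [875, 1175]. Radial glia-like cells had 727 and intermediate progenitor-like cells 711, with overlapping intervals. Newborn neuron-like cells had 259 CPM. GABAergic interneuron-like cells (95.6), endothelial and mural-like cells (94.1) and deep layer neuron-like cells (70.5) came next, and upper layer neuron-like cells had 36.5. The GABAergic [85.2, 107] and endothelial and mural [66.9, 129] intervals include the free RNA level of 97.8. Deep and upper layer neuron-like cells lay below it. In the ShhN library the order differed: GABAergic interneuron-like cells were highest at 2734 CPM, above glial or olfactory bulb progenitor-like cells (2495), intermediate progenitor-like cells (1651) and radial glia-like cells (1314), with no overlap between neighbours. Newborn neuron-like cells followed at 537. Deep (86.1) and upper layer neuron-like cells (67.8) were below free RNA in that library too.

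Ccnd1, the D cyclin often used as a readout of SHH signalling, was high in endothelial and mural-like cells, which held 236 CPM in wild type and 321 in ShhN. The 15 wild type glial or olfactory bulb progenitor-like cells stood level with them at 233 CPM [168, 315]. Among neural classes of over 100 cells, wild type radial glia-like cells had 51.9 CPM and intermediate progenitor-like cells 35.8, with overlapping intervals. Wild type neuron classes lay between 14.3 and 16.5 CPM, next to the free RNA level. In ShhN, radial glia-like cells had 131 and glial or olfactory bulb progenitor-like cells 129 CPM, again with overlapping intervals, and intermediate progenitor-like cells had 69.9. In the glial or olfactory bulb progenitor-like class, too small in wild type for the rule of size below, Ccnd1 was therefore lower in ShhN by a log2 ratio of -0.86 [-1.36, -0.33], opposite to its direction in the other progenitor classes. The ShhN neuron classes, from 18 to 23.8 CPM, were below free RNA. Ccnd3, a D cyclin prominent in blood lineages, followed a similar order. It was highest in endothelial and mural-like cells (109 and 157 CPM). Glial or olfactory bulb progenitor-like cells had 88.9 CPM in wild type, on 16 UMIs, and 58.4 in ShhN, and radial glia-like cells 46.4 and 49.5. All neuron classes of the wild type library had values below its free RNA level of 27.5, but the deep layer interval [21.6, 29.9] includes it.

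Cdk4, the kinase present in most dividing cells, was found in all classes. Intermediate progenitor-like cells had the highest level in both libraries, 1062 CPM in wild type and 1106 in ShhN. Newborn neuron-like cells (836 and 885) and radial glia-like cells (752 and 798) followed among the classes with over 100 cells in both libraries. Deep layer neuron-like cells had 367 and 373 CPM, below free RNA. Cdk6, its close relative, varied far more between classes. In both libraries the glial or olfactory bulb progenitor-like cells had the highest value, 256 CPM [187, 341] in the 15 wild type cells and 593 in ShhN. Among the larger wild type classes it ran from 196 CPM in intermediate progenitor-like cells, whose interval overlaps that of the leading class, through 97.7 in radial glia-like and 65.7 in newborn neuron-like cells to 5.49 in upper layer, 4.33 in GABAergic and 2.36 in deep layer cells. The last 3 do not differ from their neighbours in this order beyond counting error. In ShhN, intermediate progenitor-like cells came second with 528 CPM and radial glia-like cells had 316. Newborn neuron-like cells (192 [181, 203]) and GABAergic interneuron-like cells (173) overlapped in their intervals. Both values lay below the ShhN free RNA level of 203, but the newborn interval reaches it.

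**Figure D1:**
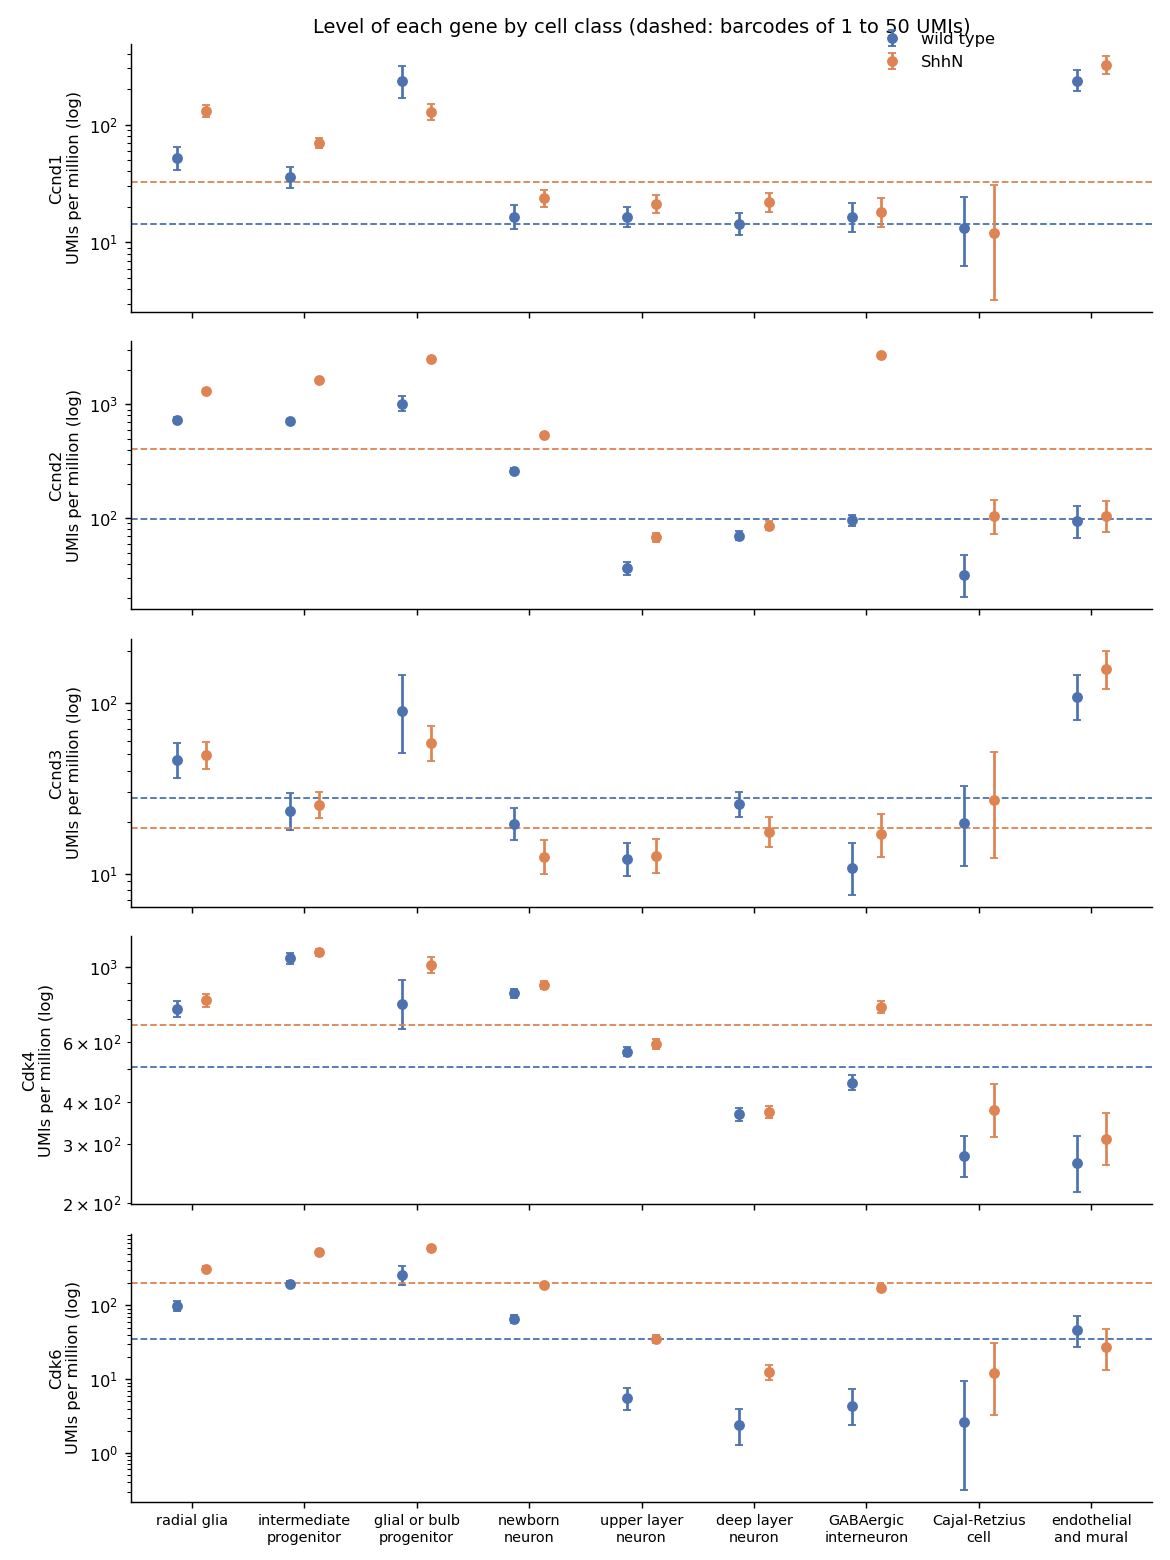
Level of each gene (CPM, log axis) in 9 cell classes of the wild type (blue) and ShhN (orange) libraries, with 95% counting intervals; dashed lines give the level in barcodes of 1 to 50 UMIs. Ccnd2 in GABAergic interneuron-like cells goes from 95.6 to 2734 CPM, while Cdk4 differs little within most classes.

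A gene was called higher or lower in ShhN by a rule of size, which asked for 50 or more UMIs in all, a log2 ratio of 1 or more in either direction and an interval that stayed 0.5 or more away from 0. Over all cells 2 of the 5 genes were past it in the higher direction, Ccnd2 and Cdk6, against 2.85% of the 13033 genes measured, and none was lower, against 1.86%. Ccnd2 had 7182 UMIs in wild type and 34206 in ShhN cells, 155 and 594 CPM, a log2 ratio of 1.94 [1.91, 1.98]. Cdk6 had 1343 and 8242 UMIs, 28.9 and 143 CPM, a log2 ratio of 2.31 [2.23, 2.39]. Ccnd1 (21.4 and 36.4 CPM; 0.77 [0.66, 0.88]) was not past the rule. Cdk4 differed by 0.25 on the log2 scale and Ccnd3 by 0.03. The median of the 5 was 0.77, beside -0.08 for all genes measured.

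Class shares differed between the libraries as well. Radial glia-like cells were 2.91% of wild type cells and 4.26% of those from ShhN, and intermediate progenitor-like cells 6.34% and 9.21%, whereas GABAergic interneuron-like cells were 11.6% and 6.36%. With ShhN class levels weighted by wild type class shares, the log2 ratios were 1.79 for Ccnd2, 1.99 for Cdk6 and 0.59 for Ccnd1. Wild type levels weighted by ShhN class shares gave 0.38, 0.50 and 0.28. For Ccnd2 and Cdk6 the first weighting gave the larger value. The shares used for weighting are of UMIs, and unassigned cells count as 1 class, with 43.5% of wild type and 46.9% of ShhN UMIs. Shifts of make-up inside a class are not separated by this weighting, and their part was not tested. GABAergic interneuron-like cells held 4.30% of the Ccnd2 UMIs of wild type cells and 22.6% of those of ShhN cells, although their part of all UMIs was 6.96% and 4.92%.

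In radial glia-like cells, Ccnd1 and Cdk6 were past the rule (2 of 5 higher, beside 0.807% of 7435 genes, and 0 lower, beside 1.02%). Ccnd1 had 84 UMIs in wild type and 327 in ShhN cells, a log2 ratio of 1.33 [0.98, 1.69]. Cdk6 had 158 and 792 UMIs, a log2 ratio of 1.69 [1.45, 1.95]. Ccnd2 was at 0.85 [0.76, 0.95], just short of the size needed. Cdk4 and Ccnd3 were each at 0.09. The class rested mainly on 1 expression cluster, led by Mt3, Fabp7 and Aldoc, with 167 wild type and 242 ShhN cells. Within it Ccnd1 was at 45.7 and 99.5 CPM, a log2 ratio of 1.12, and Cdk6 at 92.8 and 235, a ratio of 1.34. Ccnd2 there differed by 0.38.

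In intermediate progenitor-like cells, Ccnd2 and Cdk6 were past the rule (2 of 5 higher, beside 2.69% of 8787 genes, and 0 lower, beside 1.66%). Ccnd2 had 2028 UMIs in wild type and 8789 in ShhN cells, a log2 ratio of 1.21 [1.15, 1.29], and Cdk6 had 558 and 2811, a ratio of 1.43 [1.30, 1.57]. Ccnd1 (0.97 [0.65, 1.30]) came close to the size needed, while Ccnd3 (0.13) and Cdk4 (0.06) did not. The class was made of different clusters in the libraries. The cluster led by Eomes and Mfap4, genes of the neurogenic program, held 236 of its wild type and 120 of its ShhN cells. There Ccnd2 was at 598 and 992 CPM (0.73) and Cdk6 at 113 and 388 (1.78). Clusters led by genes of division held 41 and 156 cells (leading genes Ube2c and Cenpa) and 26 and 150 cells (Hist1h2ap and Top2a), with Ccnd2 ratios of 0.84 and 0.56 and Cdk6 ratios of 0.46 and 0.88. The largest Ccnd2 ratio among clusters with over 10 cells in each library was in cells of the cluster led by Olig1 and Olig2, genes of the glial lineage: 1269 CPM in 18 wild type and 3114 in 90 ShhN cells (1.30). Ccnd2 was thus past a log2 ratio of 1 in only 1 of these 5 clusters (the fifth, led by Pcp4, Mfap4 and Eomes, stood at 0.56), and the part of the cluster make-up in the class ratio was not tested.

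Newborn neuron-like cells had the same pair past the rule (2 of 5 higher, beside 1.81% of 9177 genes, and 0 lower, beside 1.22%). Ccnd2 was at 1147 and 3199 UMIs, a log2 ratio of 1.05 [0.96, 1.15], and Cdk6 at 291 and 1142, a ratio of 1.55 [1.36, 1.74]. The Ccnd2 call was lost in 5 of 11 alternative settings. This class too was made of different clusters: the one led by Pcp4 and Mfap4 held 340 wild type and 231 ShhN cells, and one led by Tfap2d and Negr1, of which 81.5% of all cells came from ShhN, held 61 and 288. Ccnd2 was at 0.68 in the first of these, at 1.67 in the other, and at 0.84 in a cluster of 218 and 242 cells led by Pdzrn3 and Unc5d. The corresponding Cdk6 ratios were 0.75, 1.88 and 1.91. Ccnd3 went the other way at -0.64 [-1.11, -0.18], without passing the rule. Dividing cells made up 5.19% of this class in wild type and 14.0% in ShhN, and the cells' median of intermediate progenitor marker UMIs was 3 and 4. In upper layer neuron-like cells Cdk6 passed (1 of 5 higher, beside 0.406%, and 0 lower, beside 0.577%) on 37 and 210 UMIs, a ratio of 2.68 [2.17, 3.23], with Ccnd2 at 0.89, or 0.03 once free RNA was subtracted at 10%. In deep layer neuron-like cells Cdk6 also passed (1 of 5 higher, beside 0.0950%, and 0 lower, beside 0.317%) on 14 and 73 UMIs, a ratio of 2.40 [1.57, 3.34]. Here 1 ShhN cell held 21 of the 73 UMIs. Both neuron levels of Cdk6 were below free RNA in their library. Subtracting free RNA at 10% ended the deep layer call (0.02), as did thinning to 4500 UMIs, where the ratio was 2.84 but under 50 UMIs were left, while the upper layer ratio was 2.91 after subtraction.

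**Figure D2:**
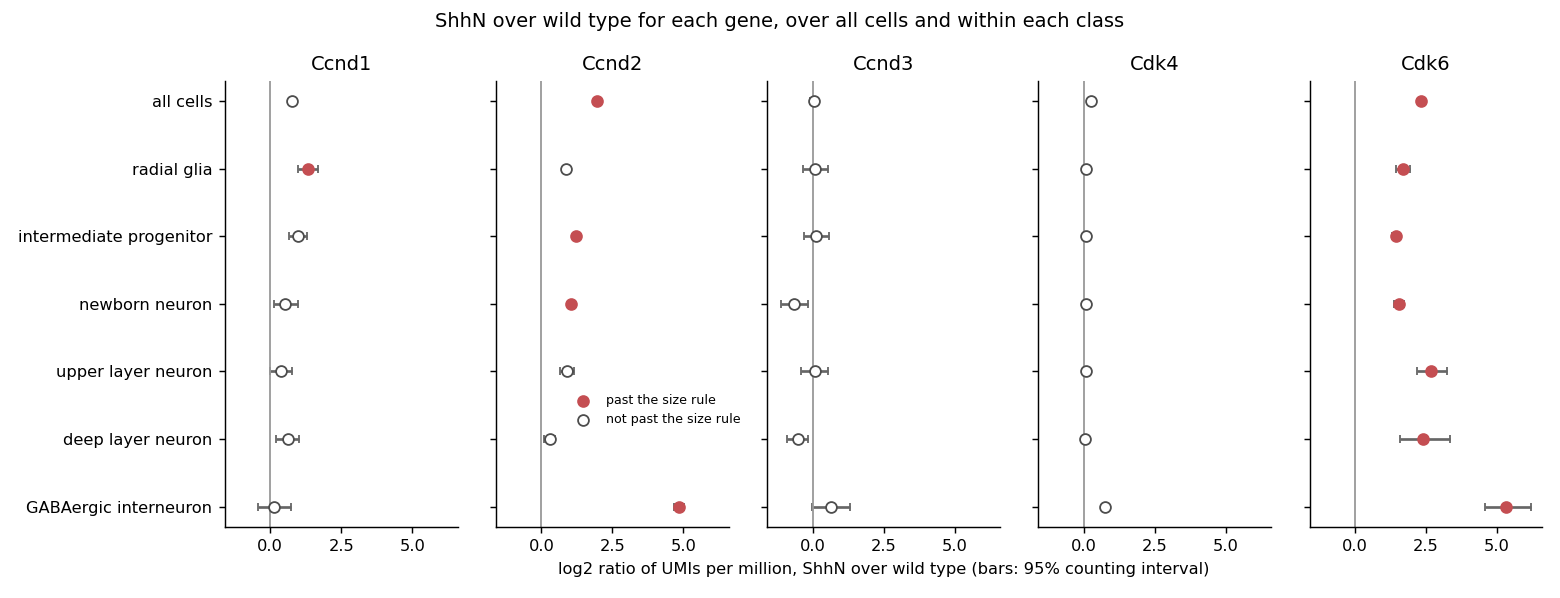
Log2 ratio of CPM, ShhN over wild type, for the 5 genes over all cells and in 6 classes; bars are 95% counting intervals and filled points are past the size rule. Cdk6 is past it in every class shown, Ccnd2 in 3 of 6 classes, Ccnd1 only in radial glia-like cells, and Ccnd3 and Cdk4 in none.

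The largest differences were in GABAergic interneuron-like cells, where Ccnd2 and Cdk6 were past the rule (2 of 5 higher, beside 5.23% of 8235 genes, and 0 lower, beside 2.36%). Ccnd2 had 309 UMIs in wild type and 7742 in ShhN cells, a 28.6-fold difference and a log2 ratio of 4.84 [4.67, 5.01]. Cdk6 had 14 and 491 UMIs, a 40.0-fold difference and a log2 ratio of 5.32 [4.56, 6.20]. The sizes depend on the cells kept: with the higher UMI limit for cells the ratios were 3.66 for Ccnd2 and 4.24 for Cdk6. Over all settings they ran to 5.34 and 7.55. A single wild type cell held 6 of the 14 Cdk6 UMIs, and without the top cell of each library the Cdk6 ratio was 6.07. Cdk4 was at 455 and 762 CPM (0.74), Ccnd3 at 10.8 and 17.0 (0.65) and Ccnd1 at 16.4 and 18 CPM (0.13). Thus 1 D cyclin of 3 differed past the rule. Dividing cells made up 2.24% of the class in wild type and 26.8% in ShhN, and radial glia marker UMIs had a median of 1 and 4 per cell.

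The Ccnd2 UMIs of this class were unevenly spread over cells. In wild type 0.374% of the cells carried 20 or more Ccnd2 UMIs, and in ShhN 35.1% did. The class fell into 3 main clusters. Cluster 6, led by Sst, Maf, Nxph1 and Lhx6, genes of interneurons from the medial ganglionic eminence, held 599 wild type and 234 ShhN cells. Its Ccnd2 level was 10.1 CPM in wild type and 32.2 in ShhN (23 and 32 UMIs), far below free RNA, and no cell had 20 Ccnd2 UMIs. Cluster 18, led by Dlx6os1, Dlx1, Dlx5 and Dlx2, held 176 and 164 cells. There Ccnd2 was at 219 CPM in wild type and 4631 in ShhN (153 and 3952 UMIs), a log2 ratio of 4.40 [4.17, 4.64]. The median cell carried 0 Ccnd2 UMIs in wild type and 22 in ShhN, and 17.6% and 82.9% of the cells had a UMI. Cluster 19, led by Hist1h2ap and Top2a, held 5 wild type and 103 ShhN cells of this class, at 2172 and 4312 CPM.

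Cells without a UMI of Mki67 or Top2a kept the difference in cluster 18, where dividing cells were 1.70% and 17.1%. Ccnd2 in the other cells of that cluster was at 219 CPM in wild type and 4507 in ShhN. Cdk6 in cluster 18 had 2 UMIs in wild type and 179 in ShhN, 2.86 and 210 CPM. The cells of cluster 18 did not look alike in the libraries. Npas1 (322 and 68.0 CPM), Htr3a (202 and 46.9) and Erbb4 (193 and 37.5), markers of maturing interneurons, were lower in ShhN. Sp9 (216 and 702), Pax6 (55.8 and 303), Vim (75.9 and 376) and Gadd45g (60.1 and 307), genes of immature or dividing cells, were higher. The Ccnd2 ratio of this class is therefore between cells that differ in other marker genes, and a difference in cell type cannot be told apart from a difference within one type.

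**Figure D3:**
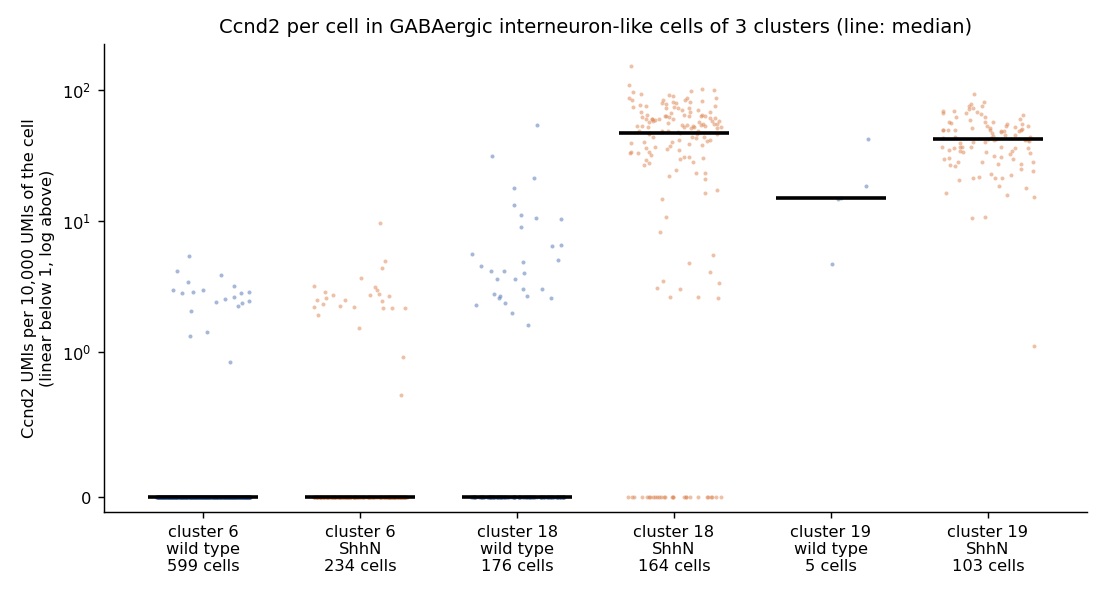
Ccnd2 UMIs per 10000 UMIs of a cell (log axis above 1, linear below) for each GABAergic interneuron-like cell of 3 clusters, by library; the black line is the median. In cluster 18 the wild type median is 0 and most ShhN cells lie well above 10, whereas in cluster 6 both medians are 0.

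Dividing cells were then separated from the rest by a UMI of Mki67 or Top2a. In radial glia-like cells they made up 42.3% in wild type and 46.1% in ShhN, so the libraries were close in this share. They were less close in S phase genes, whose summed level in this class was 1227 CPM in wild type and 2026 in ShhN. Listed G2 and M phase genes stood at 2355 and 2695 CPM. The part of S phase in the ratios below was not tested. Ccnd2 was at 750 and 1506 CPM in dividing cells (1.01 [0.88, 1.14]) and at 702 and 1086 in the others (0.63). Ccnd1 was at 51.2 and 158 CPM in dividing cells (1.62) and at 52.7 and 98.0 in the others. Cdk6 was at 124 and 355 CPM in dividing cells (1.52) and at 69.4 and 269 in the others (1.96). All 3 genes had a higher ShhN level on both sides of the split.

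In intermediate progenitor-like cells the dividing share was 17.3% in wild type and 44.3% in ShhN. Ccnd2 was at 907 and 1773 CPM in the dividing cells (0.97) and at 656 and 1512 in the others, so the difference between libraries exceeded that between dividing and other cells within the wild type (0.47). Ccnd1 was at 66.8 and 74.7 CPM in dividing cells (0.16) and at 27.0 and 64.4 in the others. Cdk6 was at 360 and 582 CPM in dividing cells (0.69) and at 149 and 467 in the others (1.65). For Ccnd1, Ccnd2 and Cdk6 the ratio was thus larger outside the dividing cells. Cells with no UMI of any S, G2 or M phase gene listed were few, 34 in wild type and 24 in ShhN, and in them Ccnd2 was at 657 and 710 CPM (0.11 [-0.30, 0.52]). Over all classes 1136 wild type and 812 ShhN cells had no such UMI, and Ccnd2 in them was at 95 and 147 CPM and Cdk6 at 19.8 and 46.2. How far cycling sets the class ratios was not tested beyond these splits.

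**Figure D4:**
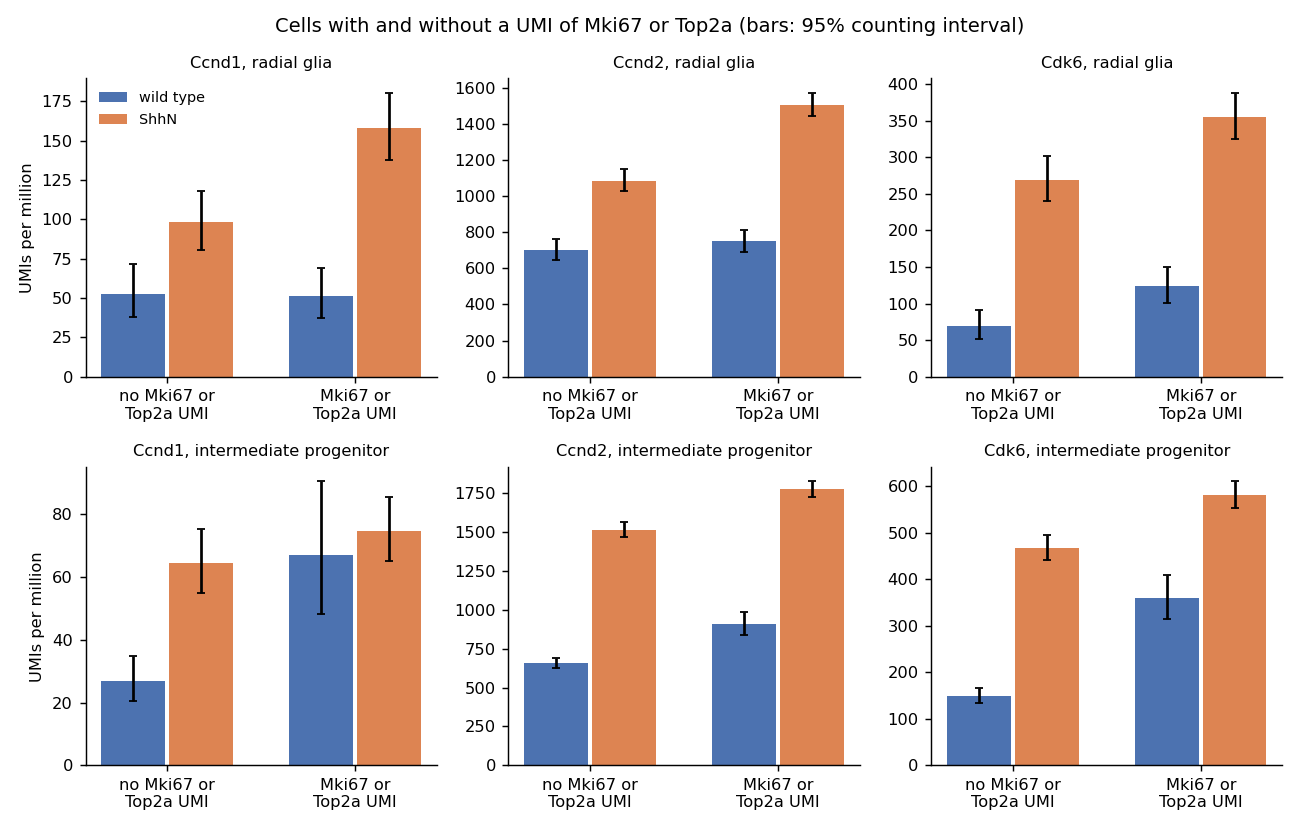
CPM of Ccnd1, Ccnd2 and Cdk6 in radial glia-like (top) and intermediate progenitor-like cells (bottom), split by a UMI of Mki67 or Top2a, with 95% counting intervals. ShhN bars are above wild type bars in each pair; for Ccnd1 in dividing intermediate progenitor-like cells, 66.8 and 74.7 CPM, the intervals overlap.

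Gli1, Ptch1 and Hhip are direct targets of SHH signalling, and a UMI of any of them marked 157 of the 345 ShhN radial glia-like cells but 16 of the 201 wild type ones. In ShhN, marked cells had more Cdk6 than the others, 426 against 190 CPM (1.16), more Ccnd2, 1553 against 1041 (0.58), and more Ccnd1, 154 against 104 CPM. Marked cells were also deeper, with a median of 7639 against 5664 UMIs, and the part of depth in marking was not tested. In ShhN intermediate progenitor-like cells, 201 were marked and 544 were not. Marked cells there had 113 against 50.4 CPM of Ccnd1 (1.16), 2412 against 1303 of Ccnd2 (0.89) and 729 against 436 of Cdk6 (0.74). Unmarked ShhN cells remained above unmarked wild type cells of this class, by 0.89 for Ccnd2 and 1.19 for Cdk6. Cdk4 differed by 0.11 between marked and unmarked ShhN cells.

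A UMI of Shh itself was found in 585 ShhN cells. Pooled over classes, these cells had 540 CPM of Ccnd2 against 599 in the 7507 cells without one (-0.15), and 134 against 144 CPM of Cdk6 (-0.11). Within several classes the carriers were higher in Ccnd2: by 0.63 [0.45, 0.81] in 16 radial glia-like cells, by 0.44 [0.31, 0.57] in 32 intermediate progenitor-like cells and by 0.38 [0.23, 0.52] in 18 GABAergic interneuron-like cells. Ccnd1 was higher by 0.96 [0.39, 1.48] in the intermediate progenitor-like carriers, and Cdk6 by 0.60 [0.27, 0.92] in 52 newborn neuron-like carriers. Cdk6 in the radial glia-like (0.19) and intermediate progenitor-like carriers (0.16) had intervals that include 0. For Ccnd2 the sign thus differs between the pooled value and these classes, but not for every class. The 308 unassigned carriers were lower, at -0.15 [-0.27, -0.02], and 35 deep layer neuron-like carriers stood at -0.50 [-1.24, 0.16]. Glial or olfactory bulb progenitor-like (0.63), newborn neuron-like (0.25) and upper layer neuron-like carriers (0.20 [-0.20, 0.58]) had positive values. The 332 cells with at least 3 Shh UMIs had a pooled ratio of -0.53 [-0.62, -0.44]. The cells without a Shh UMI kept log2 ratios over wild type of 1.95 for Ccnd2, 2.32 for Cdk6 and 0.76 for Ccnd1. A cell without a Shh UMI may still carry the plasmid at this depth.

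Ccnd2 supplied most D cyclin UMIs in the neural classes with at least 100 cells in each library. In the smaller Cajal-Retzius-like class it held 24 of 49 D cyclin UMIs in wild type. Over all cells its share of the D cyclin UMIs was 78.9% in wild type and 91.3% in ShhN. In radial glia-like cells it was 88.1% and 88.0%, since Ccnd1 differed in the same direction: the Ccnd1 share there was 6.29% and 8.73%. In GABAergic interneuron-like cells the Ccnd2 share went from 77.8% to 98.7%. Endothelial and mural-like cells were the exception, with Ccnd1 at 53.8% and 55%. Of the kinase UMIs, Cdk4 held 95.4% in wild type and 83.2% in ShhN over all cells. The Cdk4 share was 88.5% and 71.6% in radial glia-like, 84.4% and 67.7% in intermediate progenitor-like and 99.1% and 81.5% in GABAergic interneuron-like cells. Each of these shares is of 3′ tag counts, without a correction for length.

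**Figure D5:**
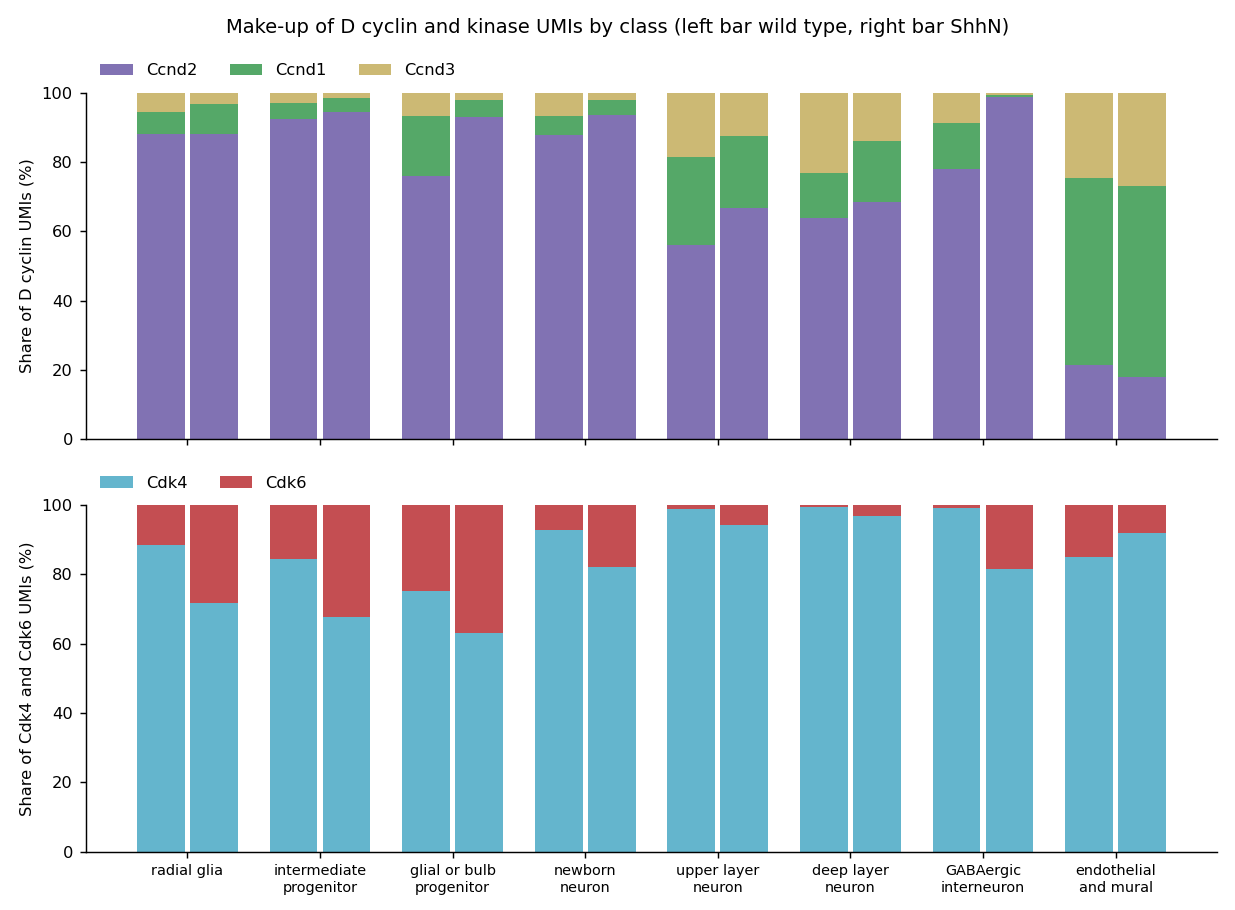
Share (%) of D cyclin UMIs held by Ccnd2, Ccnd1 and Ccnd3 (top) and of kinase UMIs held by Cdk4 and Cdk6 (bottom) in 8 classes; the left bar of each pair is wild type and the right bar ShhN. Ccnd2 leads outside endothelial and mural-like cells, and Cdk6 takes a larger share in ShhN in each neural class.

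The share of cells with a UMI was compared after thinning each cell to 4500 UMIs, which left out 1663 wild type and 1059 ShhN cells that were shallower. Ccnd2 was found in 29.9% of the wild type library and 47.3% of the other (34.1% and 53.2% before thinning). Cdk6 was found in 8.20% and 27.9% (9.87% and 32.6% before thinning), and Ccnd1 in 8.05% and 11.6% (10.9% and 16.8%). Cdk4 was near its ceiling at 90.3% and 92.7%. In endothelial and mural-like cells, Ccnd2 and Cdk6 lay at or near the free RNA level in wild type. In ShhN they lay below it, at 105 against 405 CPM for Ccnd2 and 26.9 against 203 for Cdk6. After thinning, Ccnd2 was found in 28.1% and 46.4% of 32 and 28 of these cells, and Cdk6 in 18.8% and 10.7%. Their median depths were 7180 and 7786 UMIs before thinning.

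Among radial glia-like cells, Ccnd2 was found in nearly all cells of both libraries (91.0% and 94.8%), so the libraries differed in level rather than in the share of cells. Cdk6 was found in 29.9% and 63.6% of them and Ccnd1 in 16.2% and 36.8%. In intermediate progenitor-like cells Cdk6 was found in 44.7% and 78.2%, Ccnd2 in 82.9% and 93.5% and Ccnd1 in 11.9% and 20.5%. Of the radial glia-like cells with Ccnd1, 96.3% of 27 in wild type and 99.1% of 107 in ShhN carried Ccnd2, against 90% and 92.4% of those without Ccnd1. Over all cells 36.6% and 63.6% of those with Ccnd1 carried Ccnd2, against 29.3% and 45.2% of the rest. In GABAergic interneuron-like cells Ccnd2 was found in 15.3% and 75.0%, but 653 of 803 cells in wild type and 235 of 515 in ShhN were too shallow and were left out; without thinning the shares were 8.09% and 53.6%.

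Other genes of the pathway were read from lists of known roles. Counts over all cells stand beside 2.85% of all genes higher and 1.86% lower. Of the E and A cyclins with CDK2, which act after the D cyclins, 5 of 6 were past the rule in the higher direction, Ccna2 by 1.73, Ccne2 by 1.49, Ccne1 by 1.33 and Cdk2 by 1.23 among them. Of the E2F and DP factors 3 of 10 passed: E2f2 (2.14), E2f8 (2.01) and E2f1 (1.09). Of the pocket proteins 1 of 3 passed, Rbl1 (1.39), and of the INK4 inhibitors of CDK4 and CDK6 1 of the 2 measured, Cdkn2c (1.45). None of the 3 CIP and KIP inhibitors, 3 subunits of the CDK-activating kinase, 5 genes of D cyclin turnover or 3 MYC family genes passed in either direction. The SHH targets Hhip (6.70 [5.14, 8.98], on 3 wild type UMIs), Gli1 (5.29) and Ptch1 (2.67) passed.

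Within progenitor classes fewer of these genes passed, beside 0.807% of all genes higher and 1.02% lower in radial glia-like cells and 2.69% and 1.66% in intermediate progenitor-like cells. In radial glia-like cells Ccne2 was higher by 1.77, as 1 of 5 measured cyclin E and A genes with CDK2, and Cdkn1c, the CIP/KIP inhibitor p57, was lower, at 48.8 and 21.6 CPM (-1.18). In intermediate progenitor-like cells Cdkn1c was lower as well, at 158 and 49.4 CPM (-1.68). In the same class E2f2 (1.74), E2f8 (1.64), Ccna2 (1.13) and Skp2 (1.03), a gene of ubiquitin-dependent turnover, were higher. In GABAergic interneuron-like cells, where 5.23% of all genes were higher and 2.36% lower, most of the measured inhibitors were higher. They were Cdkn2c (3.13), Cdkn2d (1.39), Cdkn1a (2.46) and Cdkn1b (1.05), 2 of 2 measured INK4 and 2 of 3 CIP and KIP genes. Cdkn1c had a value of -0.59 there, not past the rule. In newborn neuron-like cells Cdkn2c (2.0) and Cdkn1a (1.57) were higher. The medians of all genes measured were -0.03 in radial glia-like and -0.07 in intermediate progenitor-like cells.

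Across 13 points of class and library with at least 100 cells, the genes whose log2(CPM + 1) followed each of the 5 most closely among 9079 genes were as follows. Ccnd2 was followed by Hist1h1b (Pearson r = 0.983), Lrr1 (0.981) and Clspn (0.980). Cdk6 was followed by Snrpe (0.975), Nutf2 (0.963) and Spc25 (0.951), Cdk4 by Efs (0.983), H1f0 (0.979) and Polr2c (0.977), Ccnd1 by Lap3 (0.965), Rps16 (0.958) and Serbp1 (0.955), and Ccnd3 by Rexo2 (0.961), Map2k1 (0.947) and Fermt2 (0.940). Within the family, Cdk6 followed Cdk4 (0.913) and Ccnd2 (0.910) most closely, and Ccnd3 and Cdk4 least (0.393 between them). The points share libraries, depth and the share of dividing cells, so these values only describe them.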

How the data were processed

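Per the labels' protocols, cortices were dissociated with papain and run on the 10x Chromium platform. The submitters' processing notes name Cell Ranger, StringTie, Seurat 3 and mm10. The authors deposited raw UMI counts per gene and barcode, 1 matrix per group, assigned to wild type or ShhN by its CTL or EXP prefix. Cells needed 10% of the 99th percentile UMI count of the top 3000 barcodes (2333 and 2290 UMIs), 800 genes and at most 10% mitochondrial UMIs. Doublets called with scrublet (4.12% of 7216 and 2.71% of 8317 barcodes) were removed. A cell took the class whose markers had the highest mean z-score, if at least 0.5 and 0.1 above the next, with 3 markers found. This scoring was set after clusters were seen. Clusters came from scanpy 1.11.5 and leidenalg 0.10.2, without the 5 genes, cell cycle genes or SHH genes. Log2 ratios have exact binomial intervals; scripts were tested on simulated data. Text names the 5 genes, up to 4 pathway genes past the rule per list and the 3 closest genes each. Alternatives covered scaling, filters, doublets, thinning, free RNA and classes. Members and lists were chosen with earlier results of these data known.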

Additional observations from a re-analysis of the deposited data

How the results depend on the processing

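No paired analysis was possible because the 4 samples of each group are pooled in 1 matrix and no test was made. No ratio over all cells changed sign where the gene was past the size rule. Ccnd2 and Cdk6 stayed past it in the 11 alternative settings where it was applied to them. Equal weight per cell gave ratios without a call. TMM scaling gave 2.03 for Ccnd2, 0.35 for Cdk4 and 2.40 for Cdk6, and median-ratio scaling 2.03, 0.34 and 2.40; in intermediate progenitor-like cells TMM moved all genes by 0.11. Cells thinned to 4500 UMIs gave 0.20 for Ccnd3 and 0.21 for Cdk4, with 152 genes lower in place of 242. A minimum of 200 UMIs gave 140 lower. Equal weight per cell gave 2.21 for Cdk6. The next alternatives, and a stricter marker score, were chosen after seeing the data. Without cells near the class score limits Ccnd2 was at 2.01. Without the 5 clusters that came to over 80% from 1 library (561 wild type and 1756 ShhN cells), Ccnd1 was at 0.40, Ccnd2 at 1.03, Cdk4 at 0.10 and Cdk6 at 1.48, with 80 genes higher in place of 371; fewer cells were compared, and the cause was not tested.

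Within classes, 46 of 355 ratios moved. Ccnd2 in intermediate progenitor-like cells fell short of the rule without those clusters (0.65), and in newborn neuron-like cells in 5 of 11 settings (lowest 0.67). Cdk6 in deep layer neuron-like cells lost its call with free RNA subtracted at 10% (0.02) and when thinned (2.84, under 50 UMIs). Ccnd1 in intermediate progenitor-like cells passed with both scalings and with doublets kept (1.05 to 1.08), and Cdk4 in GABAergic interneuron-like cells when thinned (1.02). Ccnd2 in upper layer neuron-like cells passed with doublets kept (1.20) and with the higher UMI limit, and was at 0.03 with free RNA subtracted. In GABAergic interneuron-like cells Ccnd2 ran from 3.66 to 5.34 and Cdk6 from 4.24 to 7.55, all past the rule where it was applied. Ccnd1 and Cdk6 in radial glia-like cells passed in 11 of 11 settings. Thinning to 3000 UMIs moved 52 of 70 shares of cells, by up to 21.1 percentage points. Depth limits Ccnd1 and Ccnd3 in neurons, where levels lie near free RNA.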
